A study of Arabidopsis thaliana with 9 samples.

Results

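The 2S albumins are small, sulfur-rich storage proteins that the maturing Arabidopsis embryo packs into its protein storage vacuoles and that the germinating seed breaks down for amino acids. They are made from a precursor that vacuolar processing enzymes and aspartic proteases cut into a small and a large chain, which stay joined by disulfide bonds. Their genes are switched on during seed maturation by the ABI3, FUS3 and LEC2 class of B3 regulators together with bZIP factors, and their transcripts normally decline once a seed germinates.

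On a 1-colour expression array, the probe sets 253894_at, 253895_at, 253902_at and 253904_at stand for the tandem 2S albumin genes (the SESA family) on chromosome 4 of Arabidopsis thaliana. They were taken by their identifiers as 4 of 22746 probe sets that are not controls. The annotation used here pairs none of the 4 with a gene, so the family is given by the choice of the probe sets and each is called by its identifier. RefSeq places SESA1, SESA2, SESA3 and SESA4 next to each other on chromosome 4, with no other protein-coding gene between them in assembly TAIR10.1. Which of these genes each probe set reports, and how far related transcripts bind to more than 1 of them, was not tested. The 4 were chosen with their values on these 9 arrays known, so their levels and differences are a description and carry no p-value.

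The arrays measured total RNA of germinating seeds of 3 genotypes, 3 arrays per genotype. Col-0 was the wild type. The ARF10 genotype bore an added copy of AUXIN RESPONSE FACTOR10, which encodes a repressing auxin response factor, made of the 2.3 kb coding region behind its own 3 kb upstream region and joined to green fluorescent protein. The mARF10 genotype bore the same fusion with 4 mutations in the site that microRNA160 targets. How many transformed lines stand behind each transgenic genotype is not given in the sources used here. All seeds were wetted with 3 ml of water, chilled at 4 °C in the dark for 3 days, and sampled after 22 h in the light at 22 °C. A sample held 3 seed lots, and per the labels its replicates were biologically independent. Values are log2 signals, so a difference of 1 is a doubling, and each mean is given with its SD (n = 3). Whole seeds were measured, so fewer cells of a type and less RNA per cell cannot be told apart.

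The arrays had medians between 7.06 and 7.11. Col-0 replicate 2 stood apart on the first principal component of the tested probe sets, at 41.3 against -17.3 to 5.87 on the other 8 arrays. Photosynthesis genes had their lowest mean there, at 8.86 against 9.82 to 10.62 elsewhere (4 genes), and late embryogenesis abundant (LEA) genes, which protect the desiccating seed, their highest, at 10.63 against 8.53 to 10.35 (15 genes). The differences of the members from Col-0, and the list medians against it, are therefore also given without this array.

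In all 4 probe sets the signal was lowest in ARF10 seeds, intermediate in Col-0 seeds and highest in mARF10 seeds. Probe set 253902_at had the widest span. It read 6.01, 6.82 and 5.92 in ARF10 replicates 1 to 3, 8.15, 10.33 and 8.64 in Col-0 replicates 1 to 3, and 11.77, 10.91 and 10.90 in mARF10 replicates 1 to 3. No array of one genotype overlapped with another, though Col-0 replicate 2 came within 0.57 of the lowest mARF10 array. The ARF10 arrays lay close to 5.72, the filter on low signals used for testing, so a difference from ARF10 may be compressed at the low end.

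Probe set 253904_at read 7.56, 7.49 and 7.39 in ARF10 replicates 1 to 3, a span of 0.18. In Col-0 it read 8.58, 9.40 and 8.03, and in mARF10 12.64, 10.94 and 12.08. The ARF10 arrays were nearly level while the mARF10 arrays spread over 1.70, and the genotypes did not overlap.

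Probe set 253895_at read 7.38, 8.37 and 7.34 in ARF10 replicates 1 to 3, 9.05, 10.64 and 10.08 in Col-0, and 12.64, 11.51 and 11.80 in mARF10. Probe set 253894_at read 6.94, 7.61 and 7.34 in ARF10, 9.34, 9.81 and 7.95 in Col-0, and 11.96, 11.13 and 11.41 in mARF10. The genotypes were again apart in both, with the narrowest gap, 0.34, between ARF10 replicate 2 and Col-0 replicate 3 in 253894_at. The values of these probe sets on ARF10 replicate 3 were identical, a tie shared by 7 probe sets of that array.

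**Figure D1:**
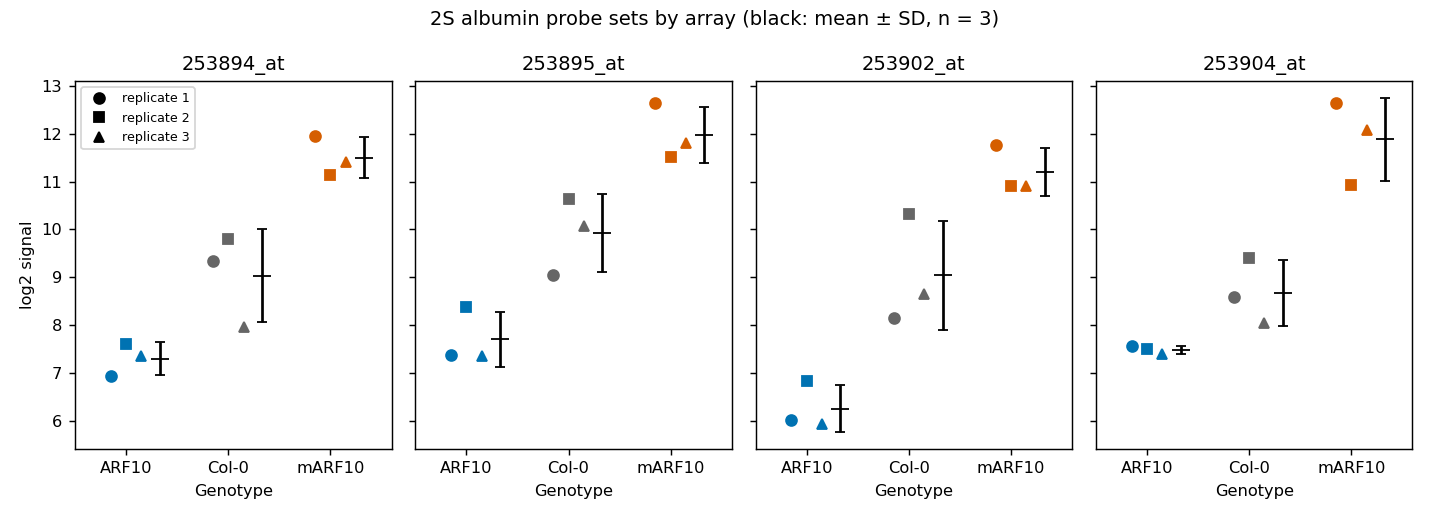
Log2 signal (vertical axis) of each 2S albumin probe set on the 9 arrays, by genotype, with the replicate number as the marker and the mean ± SD (n = 3) in black. In every panel the 3 ARF10 arrays lie below the 3 Col-0 arrays and these below the 3 mARF10 arrays, and Col-0 replicate 2 is the highest Col-0 array.

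Seeds of mARF10 and ARF10 differ by design in the microRNA160 site of the transgene. Signals of the 2S albumin probe sets were higher in mARF10 seeds by 4.20 to 4.94 on the log2 scale. For 253902_at the means were 11.19 ± 0.50 and 6.25 ± 0.49, a difference of 4.94 (SE 0.52) or 30.7-fold. For 253904_at they were 11.89 ± 0.87 and 7.48 ± 0.09, a difference of 4.41 (SE 0.43) or 21.2-fold. For 253895_at the means were 11.98 ± 0.58 and 7.70 ± 0.58, a difference of 4.29 (SE 0.44) or 19.5-fold, and for 253894_at they were 11.50 ± 0.42 and 7.30 ± 0.34, a difference of 4.20 (SE 0.43) or 18.4-fold. These were the 4 largest increases among 15922 tested probe sets, a description of members chosen with their values known.

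Every mARF10 array exceeded every ARF10 array in 4 of 4 probe sets, as it did in 9.58% of all tested probe sets. Across the 9 pairings of an mARF10 with an ARF10 array, the smallest difference of any member was 3.15 (253895_at). Of all tested probe sets, 0.816% were higher by at least 1 log2 unit. These shares come from the data that chose the members and are given as a background only.

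Set against the wild type, the probe sets were higher in mARF10 seeds by 2.06 to 3.22, and the order among them was not the one seen against ARF10. The largest step was that of 253904_at, from 8.67 ± 0.69 in Col-0 to 11.89 in mARF10, a difference of 3.22 (SE 0.43) or 9.29-fold. It was followed by 253894_at, with a Col-0 mean of 9.03 ± 0.97 and a difference of 2.47 (SE 0.43). For 253902_at, with a Col-0 mean of 9.04 ± 1.14, the difference was 2.15 (SE 0.52), and for 253895_at, with a Col-0 mean of 9.92 ± 0.81, it was 2.06 (SE 0.44). Neighbours in this order below 253904_at differed by less than 1 SE. The arrays did not overlap in 4 of 4, against 5.26% of all tested probe sets in this direction, and 0.239% of the tested probe sets were higher by at least 1 log2 unit.

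Which Col-0 array mattered most varied between members. Without replicate 2 the mARF10 minus Col-0 differences were larger, at 2.86 for 253894_at, 2.42 for 253895_at, 2.80 for 253902_at and 3.58 for 253904_at. The lowest values on leaving out 1 Col-0 array were 1.93 for 253894_at and 2.90 for 253904_at, both without replicate 3, and 1.62 for 253895_at and 1.71 for 253902_at, both without replicate 1. The LEA and photosynthesis means of Col-0 replicate 2 move with its high 2S albumin signals, and their part in the Col-0 level was not tested.

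ARF10 seeds, whose transgene keeps the microRNA160 site intact, were likewise set against the wild type. Their 2S albumin signals were lower, with differences of -2.79 to -1.19. The difference was -2.79 (SE 0.52) for 253902_at, a 6.91-fold lower signal, and -2.23 (SE 0.44) for 253895_at. It was -1.74 (SE 0.43) for 253894_at and -1.19 (SE 0.43) for 253904_at, a 2.28-fold lower signal. The arrays did not overlap in 4 of 4, against 3.61% of all tested probe sets in this direction, and 0.408% of the tested probe sets were lower by at least 1 log2 unit. Without Col-0 replicate 2 the differences were smaller, at -1.35 for 253894_at, -1.87 for 253895_at, -2.14 for 253902_at and -0.83 for 253904_at. They were farthest from 0 without replicate 3 for 253894_at (-2.28) and 253904_at (-1.51), and without replicate 1 for 253895_at (-2.66) and 253902_at (-3.24). Deviations of same-numbered samples from their genotype means correlated at 0.48, 0.49 and 0.19 between these genotypes, and those of unlike number at -0.52 to 0.14. Whether the samples were paired was not tested. The differences taken by number ran from -3.51 (253902_at, number 2) to -0.60 (253894_at, number 3). All 12 were negative, as any pairing of arrays that do not overlap must give. With the replicate number as a block in a fit of these genotypes alone, added after seeing the data, the SEs were 0.21 to 0.37. The like fits gave SEs of 0.24 to 0.33 for mARF10 minus ARF10 and of 0.40 to 0.56 for mARF10 minus Col-0.

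**Figure D2:**
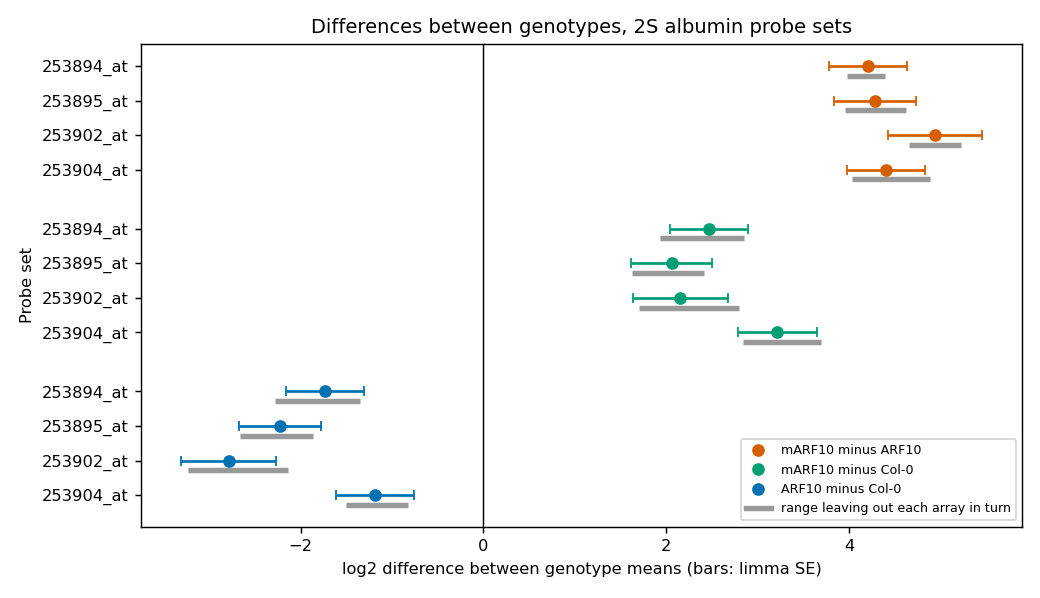
Log2 difference between genotype means (horizontal axis, points with limma SE as bars) for each 2S albumin probe set in the 3 comparisons, with the range found when each array of the compared genotypes was left out in grey. All 12 differences keep their sign in every such fit, as they must where the arrays of the compared genotypes do not overlap. The grey ranges therefore show only how far the sizes move. The mARF10 minus ARF10 differences stay at 3.96 or more throughout.

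The 3 comparisons share their arrays, so they are not separate observations. Set on the step from the ARF10 to the mARF10 mean, Col-0 lay at 27.0% for 253904_at, 41.3% for 253894_at, 52.0% for 253895_at and 56.4% for 253902_at. Without Col-0 replicate 2 these positions were 18.7%, 32.1%, 43.6% and 43.4%. All 3 genotypes were apart, with ARF10 below Col-0 below mARF10, in 4 of 4 probe sets and in 0.308% of all tested probe sets (49 of 15922).

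The members also varied within genotypes. In Col-0 the SDs of 0.69 to 1.14 compare with a median of 0.14 over all tested probe sets, and in mARF10 0.42 to 0.87 with 0.10. In ARF10 the SDs of 3 members, 0.34 to 0.58, were above the median of 0.08, while that of 253904_at (0.09) was close to it. Col-0 replicate 2 and mARF10 replicate 1 each gave the highest value of their genotype in 4 of 4 members, and ARF10 replicate 2 in 3 of 4, the exception being 253904_at. Differences between genotypes made up 91.1% to 92.7% of the variance of each member over the 9 arrays. The members were chosen with these values known, so the shares are a description only.

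Within genotypes the 4 probe sets did not move as 1 unit. With each value taken relative to the mean of its genotype, Pearson's r over the 9 arrays was highest between 253895_at and 253902_at (0.90) and lowest between 253894_at and 253895_at (0.36), a description of 9 arrays that share their processing. On Col-0 replicate 3, 253894_at was 1.33 below its own mean over the 9 arrays and 253895_at was 0.21 above its own. Over all 9 arrays, which include the steps between genotypes, the 6 pairs had r from 0.92 to 0.99.

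Genes next to the tandem cluster gave much smaller differences. On one side AT4G27130, the nearest gene, was at 11.81 ± 0.03 in ARF10, 11.64 ± 0.10 in Col-0 and 11.91 ± 0.07 in mARF10 seeds, and AT4G27120 at 8.37 ± 0.12, 8.78 ± 0.34 and 8.68 ± 0.16. On the other side AT4G27220 was at 6.53 ± 0.09, 6.51 ± 0.05 and 6.37 ± 0.15. By limma these 3 genes did not pass in any comparison (adjusted p from 0.365 to 0.957), and the largest of their differences was -0.41 (AT4G27120, ARF10 minus Col-0). AT4G27190 had a mean of 4.82, below the filter, and was not tested. COBL11 and ATK2, the remaining genes within 3 places of the cluster, were not analysed here.

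The 10 named genes with a pattern most like the mean of the 4 members, each centred on its own mean, were picked by Pearson's r over the 9 arrays among 631 named probe sets with a range of at least 1. The choice fixes their direction, so they are described without a test. Highest was AT2G15010, of the thionin family of small cysteine-rich proteins, with r = 0.98 and means of 8.92 ± 0.28 in ARF10, 9.98 ± 0.79 in Col-0 and 11.37 ± 0.31 in mARF10 seeds. Next was AT1G47540, of the trypsin inhibitor family, with r = 0.98 and means of 6.0 ± 0.26, 6.98 ± 0.52 and 9.25 ± 0.37. The list also held AT1G62510, whose product belongs to the wider lipid transfer protein and 2S albumin superfamily (r = 0.94). It was at 11.09 ± 0.01, 11.53 ± 0.14 and 12.07 ± 0.09, so it shared the order of the genotypes over a range of 1.10 where the members spanned at least 5.02.

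BHLH101 (r = 0.95) and PYE (r = 0.93) encode transcription factors of the iron-deficiency response. BHLH101 was at 5.32 ± 0.08, 5.59 ± 0.21 and 6.38 ± 0.27 in ARF10, Col-0 and mARF10 seeds, below the filter of 5.72 in ARF10 and Col-0. The LEA gene AT3G02480 (r = 0.93) and the cupin gene AT4G36700 (r = 0.92), of the fold that storage globulins share, belong to the seed programmes described next. The others were AT5G05250 (r = 0.96), AT3G10200 (r = 0.96) and AT5G59170 (r = 0.95), the last of the extensin-like family of cell wall proteins.

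**Figure D3:**
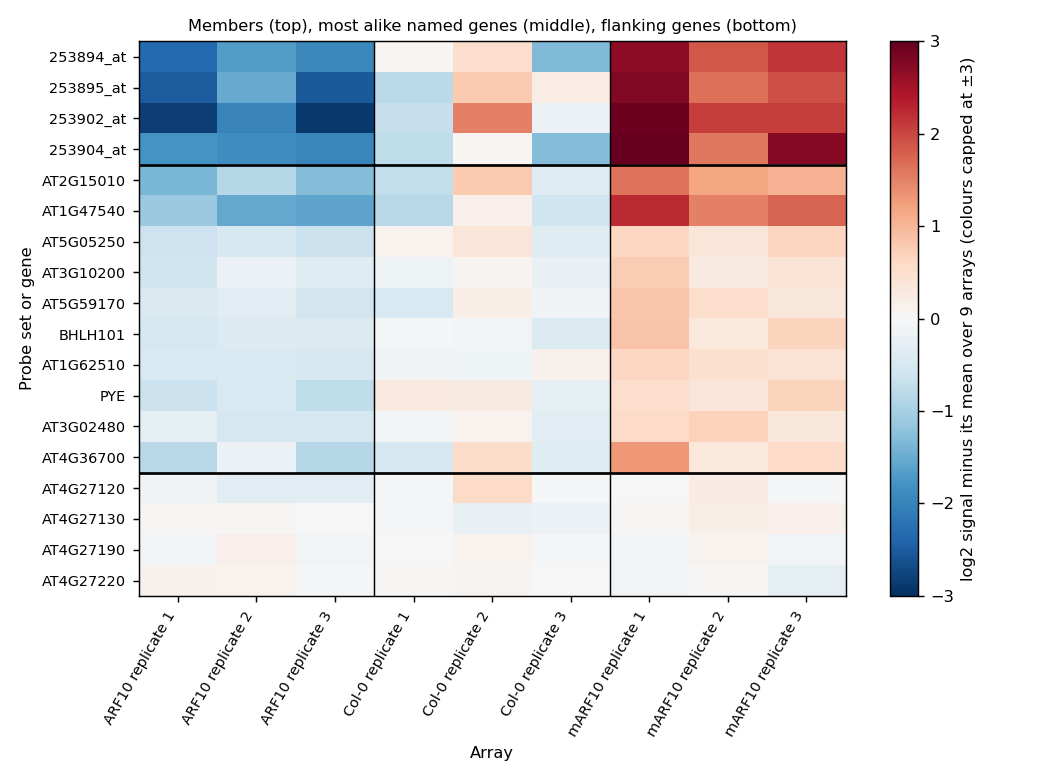
Log2 signal minus its mean over the 9 arrays (colour, capped at ±3) for the 4 members (top), the 10 named genes most alike to them (middle) and the 4 measured flanking genes (bottom), with arrays in columns by genotype. The members run from blue in ARF10 to red in mARF10, the alike genes do so over smaller ranges, and the flanking genes stay near 0.

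Other storage reserves were examined as genes of the same programme. In the comparison of mARF10 with ARF10, limma called 50 of 15922 probe sets higher (0.314%) and 15 lower (0.0942%), and the median difference over all tested was -0.02. Of 8 listed cruciferin and vicilin-type cupin genes, the globulin partners of the albumins, 3 were tested. These were PAP85, AT2G28490 and AT4G36700, so no cruciferin was tested. None of the 3 passed, with a median of 3.04. PAP85, a vicilin-type globulin, averaged 10.54 ± 0.89 in mARF10 against 7.20 ± 0.59 in ARF10 (adjusted p = 0.0937), and AT2G28490 at 9.36 ± 0.61 and 6.32 ± 0.63 (adjusted p = 0.0582). Of 11 listed oil body protein genes 4 were tested, with a median of 1.27. Of these 1 passed, OLEO3, an oleosin that coats the oil body, with a difference of 1.09 (adjusted p = 0.0120). OLEO3 was also the 1 gene of these lists, besides the members, whose 3 genotypes were all apart in the same order.

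Of 15 tested LEA genes 2 passed, M17 with a difference of 3.84 (adjusted p = 0.0317) and AT3G02480 with 0.97 (adjusted p = 0.0243). All 15 differences were positive, with a median of 0.97. M17 averaged 5.81 ± 0.66 in ARF10, 9.17 ± 1.22 in Col-0 and 9.65 ± 0.50 in mARF10 seeds. Its Col-0 arrays, at 7.77, 9.93 and 9.82, overlapped with its mARF10 arrays, at 10.01, 9.87 and 9.08. The mARF10 minus Col-0 difference of M17 was 0.48 (adjusted p = 0.748), and it was -0.22 without Col-0 replicate 1, 0.86 without replicate 2 and 0.80 without replicate 3.

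Of the regulators of seed maturation, 3 of 14 listed genes were tested and 1 passed, with positive differences in all 3. EEL, a bZIP factor of the late maturing embryo, had a mean of 7.11 ± 0.27 in mARF10 against 6.08 ± 0.12 in ARF10, which differ by 1.02 (adjusted p = 0.0499). BZIP53, a bZIP factor known to activate 2S albumin promoters, differed by 0.07 (adjusted p = 0.807) and AT5G44080 by 0.05 (adjusted p = 0.924). The 4 calls among these lists (OLEO3, M17, AT3G02480 and EEL) were not kept with fewer arrays: without any 1 of the ARF10 arrays, or without mARF10 replicate 1 or 3, 0 genes of the lists passed, and without mARF10 replicate 2 OLEO3 alone did. The differences themselves stayed at 1.0 to 1.23 for OLEO3, 3.49 to 4.14 for M17, 0.89 to 1.06 for AT3G02480 and 0.89 to 1.16 for EEL when 1 array of these genotypes was left out. Without Col-0 replicate 3 EEL was lost, while without Col-0 replicate 1 or 2 all 4 were kept among 12 and 10 calls, which then included PAP85 and AT2G28490. ABI3, FUS3, LEC1 and LEC2 and the repressors of the maturation programme were not analysed here.

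Of the genes listed for processing, sorting and degrading storage proteins, 5 of 7, 1 of 8 and 2 of 9 were tested. None was called between mARF10 and ARF10. Over all tested probe sets only 0.314% were called higher and 0.0942% lower, so the lack of calls among so few genes does not describe the machinery as a whole. Of 5 tested processing enzymes none passed, with a median of 0.24; DELTA-VPE, a vacuolar processing enzyme, differed by 0.29 (adjusted p = 0.413) and the aspartic protease gene AT1G62290 by 0.33 (adjusted p = 0.473). BETA-VPE, the processing enzyme best known from seeds, differed by 0.24 (adjusted p = 0.785). GAMMA-VPE and APA1, also of this list, went the other way, by -0.05 and -0.07 (adjusted p = 0.828 and 0.841). MAG2, which acts in the export of storage proteins from the endoplasmic reticulum, differed by -0.03 (adjusted p = 0.900). The cysteine protease genes AT3G45310 and AT2G21430 differed by 0.03 and 0.02 (adjusted p = 0.923 and 0.973).

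Lists for other tissues were sparse. Of 4 tested photosynthesis genes none passed, with a median of -0.28. LHCB4.1, an antenna protein, differed by -0.54 (adjusted p = 0.430) and PORB, of chlorophyll synthesis, by -0.71 (adjusted p = 0.640). PSBW and PRK, also of this list, differed by -0.01 and 0.15 (adjusted p = 0.994 and 0.947). Against Col-0 the medians of the list were 0.37 in mARF10 and 0.60 in ARF10, with 4 of 4 positive in each. Without Col-0 replicate 2 these medians were -0.09 and 0.19. BAN, a seed coat enzyme of proanthocyanidin synthesis, was the 1 tested coat gene and differed by -0.08 (adjusted p = 0.833). The photosynthesis means on the arrays were 10.25 to 10.62 in ARF10, 8.86 to 10.44 in Col-0 and 9.82 to 10.55 in mARF10 seeds, and their part in the 2S albumin differences was not tested.

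Against Col-0, limma called 0 of 15922 probe sets in mARF10 (0%, with 1697 at an unadjusted p under 0.05) and 0 in ARF10 (0%, with 739), so no gene of these lists passed; without Col-0 replicate 1, 4 passed between ARF10 and Col-0 (M17 among them), and without mARF10 replicate 2, 1 (OLEO3) passed between mARF10 and Col-0. Between mARF10 and Col-0 the medians were 0.83 for the cupin genes, 0.56 for the oil body genes and 0.22 for the LEA genes, beside -0.01 over all tested. Without Col-0 replicate 2 they were 1.09, 0.63 and 0.72, and without Col-0 replicate 1 they were 0.04, 0.33 and -0.28, so the sign of the LEA median depended on that array. Without Col-0 replicate 3 they were 1.0, 0.65 and 0.37. Between ARF10 and Col-0 they were -2.49, -0.51 and -0.72, beside 0.01 over all tested. Without Col-0 replicate 2 they were -2.25, -0.46 and -0.33, and without Col-0 replicate 1 they were -3.08, -0.70 and -1.29; without Col-0 replicate 3 they were -1.98, -0.43 and -0.87, so the size of the LEA median moved with these arrays. Between mARF10 and Col-0 the 2S albumin differences, at 2.06 and more, all lay above those of every tested cupin, oil body and LEA gene, of which the highest was 0.85 (AT4G36700). Between ARF10 and Col-0 they were within the span of these genes, whose lowest value was that of M17 at -3.36. The members were chosen with their values known and the lists with earlier results known, so both placings are a description only.

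**Figure D4:**
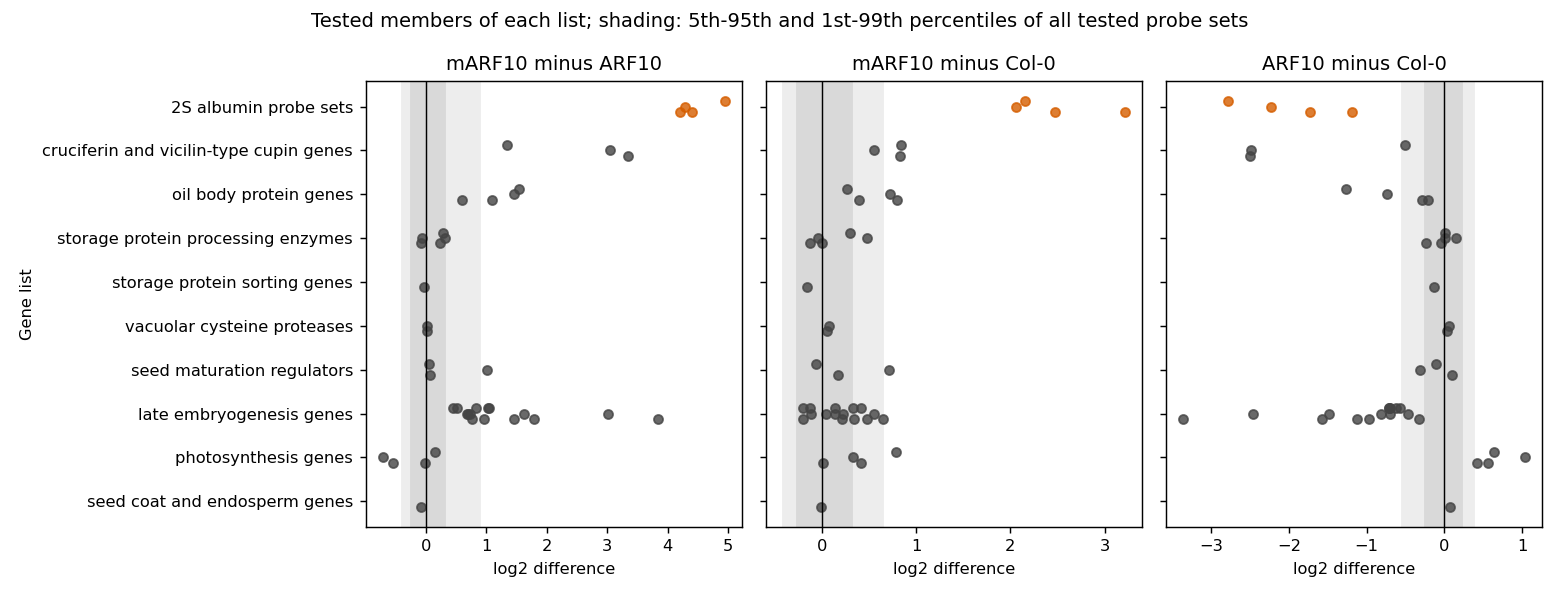
Log2 difference (horizontal axis) of each tested gene of the lists and of the 4 members (orange) in the 3 comparisons, with the span from the 5th to the 95th and from the 1st to the 99th percentile of all tested probe sets shaded. The members lie from 4.20 to 4.94, from 2.06 to 3.22 and from -2.79 to -1.19, and the processing, sorting and protease genes lie nearer 0. Farthest out of these is AT1G62290, at 0.48 between mARF10 and Col-0, where the 95th percentile is 0.325. Between mARF10 and ARF10 it lies at 0.327, where the 95th percentile is also 0.325.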

How the data were processed

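The deposited table gives a log2 signal for each probe set on each array; the authors' summary and normalization steps are not stated in the sources used, and base 2 is inferred, as all values lie between 3.70 and 14.78. Per the labels' protocols, RNA was amplified from 5 µg per sample and biotin-labelled. The values were used without renormalizing them, detection was not assessed, and the number of arrays limits the precision. Of 22746 probe sets that are not controls, 15922 were tested: those whose mean (9 arrays) reached the 30th percentile, 5.72. Using limma 3.58.1 (R 4.3.3), 1 mean per genotype was fitted on the 9 arrays together, with eBayes moderation and Benjamini-Hochberg adjustment at 0.05; adjusted p-values are 2-sided, and the fit was tested on simulated data.

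The members and lists were chosen with earlier results of these data known. From each list the genes that passed are named, otherwise the 2 with the smallest p. BETA-VPE, GAMMA-VPE, APA1, PRK, PSBW, AT5G44080 and BZIP53 were added after their values were seen. Where a gene had several probe sets, the one with the highest mean was used. Deviations of same-numbered samples from their genotype means correlated at 0.48, 0.49 and 0.19 between ARF10 and Col-0, so the number was taken to pair these, and at -0.17 to 0.48 and -0.08 to 0.25 between mARF10 and Col-0 or ARF10. The highest correlation, 0.61, was between samples of unlike number, Col-0 replicate 1 and mARF10 replicate 3. The planned promoter motif search was not run.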

Additional observations from a re-analysis of the deposited data

How the results depend on the processing

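The 12 differences of the 2S albumin probe sets kept their sign and moved by less than their residual SD in all 144 alternative settings: quantile normalization, median centring, unlogged means, array weights, the replicate block and leaving out each array of the compared genotypes. The residual SD is larger than the SE, and some moves exceeded the SE. With array weights 253894_at between mARF10 and Col-0 went from 2.47 (SE 0.43, residual SD 0.64) to 3.11. In the same comparison 253904_at went from 3.22 (SE 0.43) to 3.78, and between ARF10 and Col-0 253894_at went from -1.74 to -1.12. With the block, over all 9 arrays or in a fit of the compared genotypes alone, the differences were the same by construction, 4.94 for 253902_at between mARF10 and ARF10. Leaving out 1 array cannot turn a sign, as the arrays of the compared genotypes do not overlap. The 144 settings thus include many whose outcome on this point was fixed in advance. The background count of called probe sets was less stable. Between mARF10 and ARF10 it was 65, 70 with the block over all arrays, 547 with the block in a fit of these genotypes alone (added after seeing the data), 397 in that fit without the block and 784 with array weights, and from 1 (without ARF10 replicate 3) to 268 (without Col-0 replicate 2) leaving out 1 array. Between mARF10 and Col-0 it was 82 with array weights and 0 to 14 (without Col-0 replicate 1) leaving out 1 array; between ARF10 and Col-0 it was 1 with quantile normalization, 1 with array weights, 1 with a trended and robust eBayes, and 0 to 19 (without Col-0 replicate 1) leaving out 1 array. With the block, the Col-0 counts stayed at 0. Array weights were estimated gene by gene, since the default estimate did not converge. Genes of the other lists that passed numbered 4 between mARF10 and ARF10 and 0 to 12 (without Col-0 replicate 1) leaving out 1 array, 0 to 1 (without mARF10 replicate 2) between mARF10 and Col-0, and 0 to 4 (without Col-0 replicate 1) between ARF10 and Col-0. Leaving out an array of a compared genotype also leaves fewer arrays to test; the other causes of these shifts were not tested.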
